A study of Mus musculus with 78 samples.

Results

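Livers of male B6C3F1 mice that had drunk water with 3.5 g/L dichloroacetic acid (DCA) for 78 weeks (Direct-78) were compared with livers of age-matched mice that had drunk deionized water only (Control-78). Treatment began at an age of 4 weeks in all groups, and no mouse carried an engineered allele. Expression was measured with TempO-Seq, which counts ligated probe pairs by sequencing, in lysates of archived formalin-fixed, paraffin-embedded sections, 1 library per mouse. The series held 78 libraries in 13 groups, and each group of these 2 had 6. The compared libraries were those that were also columns of the authors' normalized table: 3 of Direct-78 (mice 64, 65 and 66) and all 6 of Control-78 (mice 85 to 90), 9 of 78 in all. Groups that had drunk DCA for 57 weeks (S3-57, 5 libraries) and for 10 weeks (S1-10, 6 libraries), with their own age-matched controls (Control-57, 6 libraries, and Control-10, 4 libraries), were used to test where the change at 78 weeks differed. All 13 groups entered the fitted model and so its dispersions. With only the compared groups in the model, 301 genes passed the thresholds instead of 475. Mouse numbers are those of the labels. Whether sections held tumor tissue was not given in the labels, and sections of 1 liver need not represent all of it.

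DCA is a small chlorinated acid that resembles pyruvate. It inhibits the pyruvate dehydrogenase kinases, which hold the pyruvate dehydrogenase complex inactive, so that more pyruvate is turned into acetyl-CoA inside the mitochondria. The liver makes most plasma proteins, bile acids and cholesterol, clears foreign compounds, and in mice expresses many genes at levels that differ between the sexes. Hepatocytes secrete large amounts of protein and depend on the folding machinery of the endoplasmic reticulum (ER). The panel of 2755 genes holds none of the kinase genes (PDK1, PDK2, PDK3 and PDK4). PDHA1, a subunit of the complex that they act on, was at 36.8, 34.6 and 5.49 CPM in mice 64, 65 and 66 and at 30.3 to 47.5 CPM (median 38.1) in Control-78, where CPM are counts per 1000000 counts of a library after scaling by median ratios. Its groups overlapped and it did not pass the test (log2 fold change -0.59 ± 0.61 (SE), edgeR adjusted p = 0.483). With single libraries left out its log2 fold change ranged from -0.93 without mouse 64 to -0.10 without mouse 66. None of the 9 tested genes of the pyruvate dehydrogenase and TCA cycle list was called, against 21.5% of all genes tested.

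Depth differed between the groups. Total counts were 699825, 541245 and 671116 in mice 64, 65 and 66, and 2098777 to 4285848 (median 3505219.5) in Control-78, so that 10 CPM corresponded to 5.46 to 8.14 counts in Direct-78 and to 12.2 to 37 counts in Control-78. The 3 Direct-78 libraries held a count for 2095, 1750 and 2059 genes, against 2355 to 2535 in Control-78. When every library was thinned at random to 541245 counts, the Control-78 libraries still held 2104 to 2236 genes over 5 draws, and mice 64 and 66 held 2052 to 2094. Of 1767 genes with a mean of 10 CPM or more in the other groups, 143, 205 and 186 were at 0 in mice 64, 65 and 66 at this equal depth. The same count was 27 to 45 in 5 Control-78 libraries and 83 in mouse 86. The squared Spearman correlation with the mean of all libraries was 0.711, 0.800 and 0.641 for mice 64, 65 and 66 and 0.849 to 0.944 for Control-78, with mouse 86 the lowest. The authors left out libraries with a squared Spearman correlation under 0.7. By the values computed here mouse 66 lay under that limit but was kept, and mouse 70 of Control-10 was left out at 0.752. The 3 Direct-78 libraries also differed among themselves, since MUP8 took 23% of the counts in mouse 66. Depth and DCA cannot be told apart here, because no Direct-78 library was as deep as any Control-78 library.

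**Figure D1:**
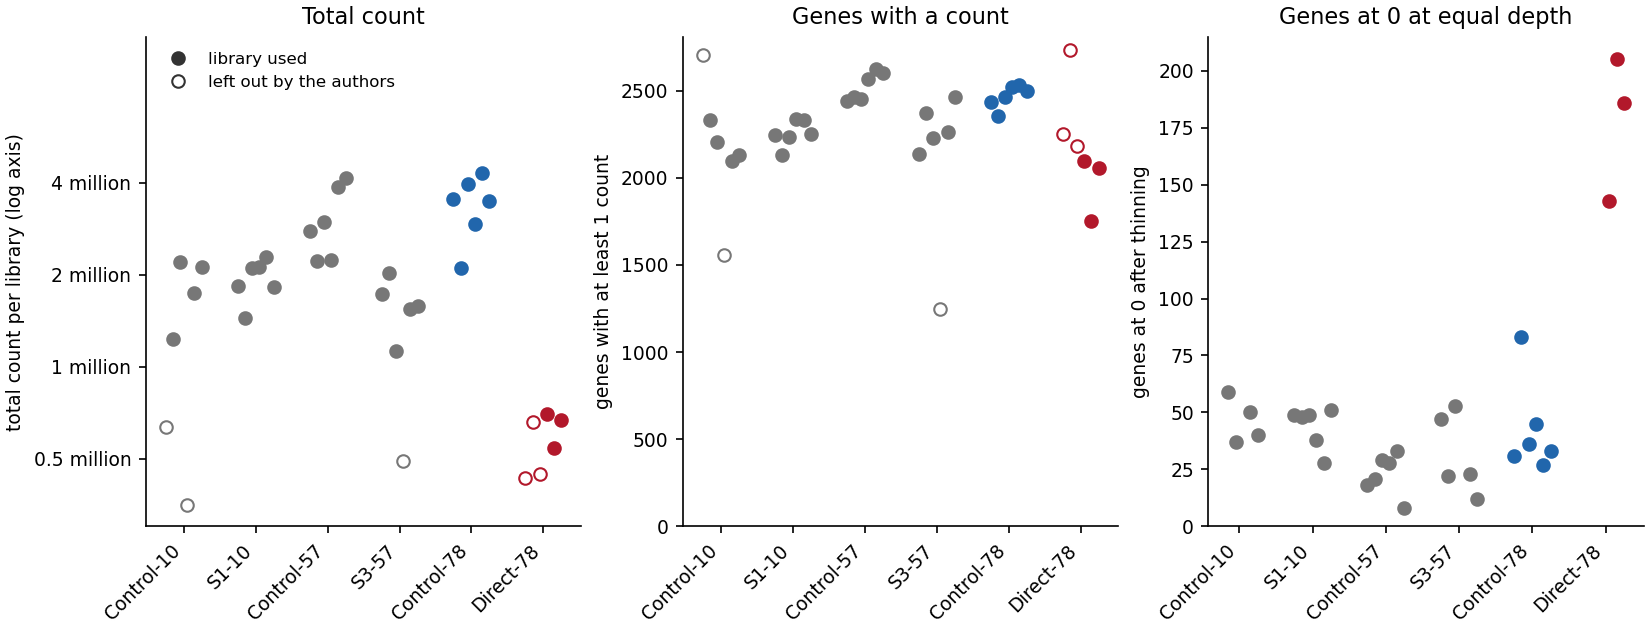
Total count per library (left, log axis), genes with at least 1 count (middle) and genes at 0 after thinning to 541245 counts, among 1767 genes with a mean of 10 CPM or more in the other groups (right), for Direct-78, Control-78 and the 4 groups used for comparison. Each point is 1 library, and open points were left out by the authors. Direct-78 had the lowest totals of the libraries used and 143 to 205 genes at 0, against 27 to 83 in Control-78.

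Of 2205 genes tested, 475 (21.5%) were differentially expressed genes (DEGs), with an adjusted p of 0.05 or less in edgeR's quasi-likelihood test and a fold change beyond 1.5. Of these, 220 (9.98% of the genes tested) were higher and 255 (11.6%) lower in Direct-78. The split depended on the scaling, since the median log2 fold change of all genes was 0.07 with median ratios and -0.33 with TMM factors, where 126 DEGs were higher and 413 lower. Medians of gene lists are therefore given relative to the median of all genes. All 3 Direct-78 libraries lay above all Control-78 libraries for 181 genes (8.21%) and below them for 215 (9.75%). Of the DEGs, 102 higher and 150 lower ones were separated in this way, and 223 had overlapping libraries. After thinning to equal depth, 5 draws gave 420 to 477 DEGs, 326 DEGs were called in the same direction in all 5 draws, 6 in none, and none had the opposite sign in any draw. Leaving out mouse 64 or 66 reduced the count to 203 or 211, and leaving out mouse 65 raised it to 652. With the log2 total count as a covariate there were 6 DEGs, of which 5, all lower, were among the 475, and 364 of the 475 kept their sign. These 5 genes were at 1.23 CPM or less in every Direct-78 library used. Changes also differed with abundance, but not in order: in 5 equal groups of 441 genes from low to high mean expression, the median log2 fold change was 0.18, 0.74, 0.01, -0.08 and -0.20.

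**Figure D2:**
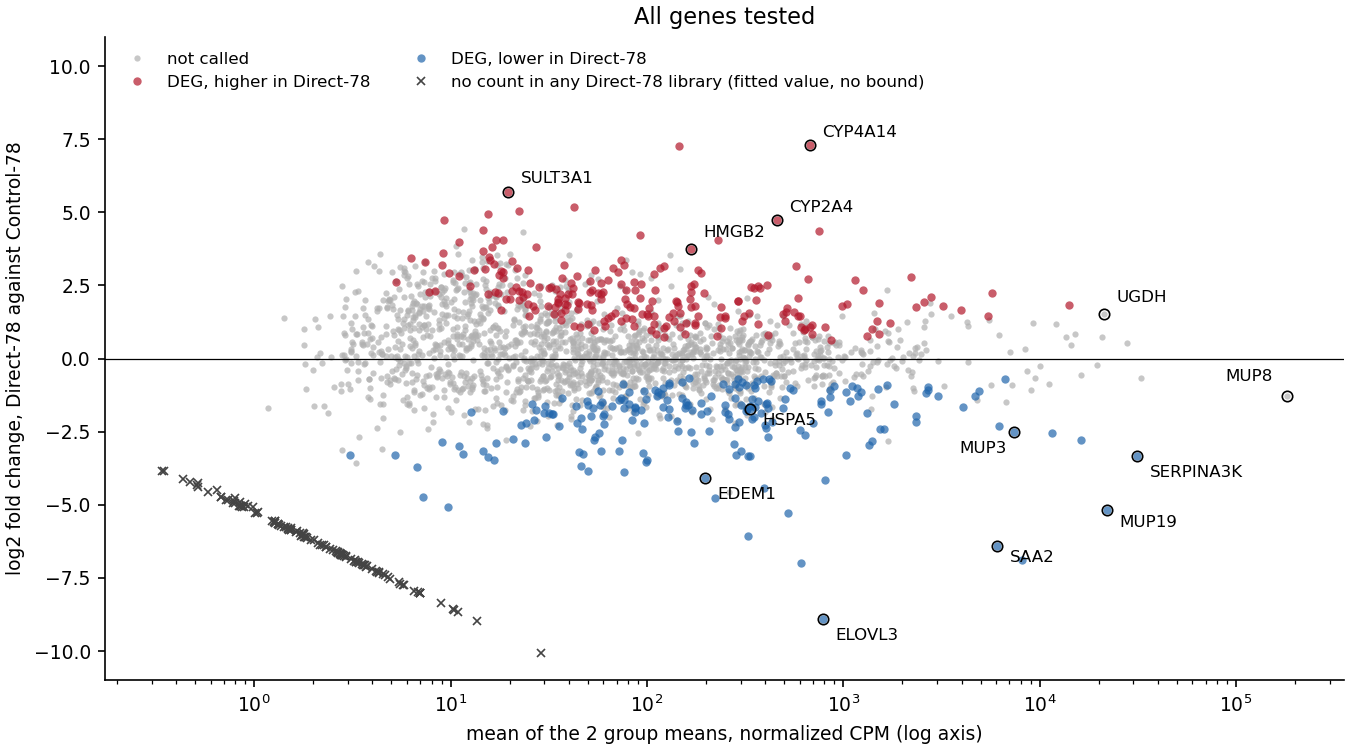
Log2 fold change of Direct-78 against Control-78 over the mean normalized CPM (log axis), with 1 point per gene tested. Colors mark the 220 higher and 255 lower DEGs, and crosses mark the 121 genes without a count in any Direct-78 library, whose fitted values depend on the prior count. The largest falls among abundant genes included MUP19, SAA2 and SERPINA3K.

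Results are ordered by gene lists that cover functions of the liver. The lists with the lowest medians relative to all genes were the major urinary proteins (-3.92), the erythroid markers (-2.99), ER-associated degradation (-2.51), male-biased liver genes (-1.78), complement (-1.75), acute phase proteins (-1.53) and cholesterol synthesis (-1.48). The erythroid median rests on genes without counts in Direct-78 and was -0.31 with those genes at their bound. Among the lists reported, higher medians were found for female-biased liver genes (1.92) and cell cycle genes (1.5). They were also found for markers of cholangiocytes (2.57), pancreas (2.40) and skeletal muscle (1.58). These cells and tissues make up little or none of a liver section. No list was tested as a set. Counts of calls in a list stand against 9.98% of all genes tested called higher and 11.6% called lower. Of 105 genes followed across settings, 90 were called. Of these, 32 kept the call with any 1 library of the 2 groups left out. Genes named only in passing, such as PRDX1, PPIB, CYP2C39 and CCR2, were not among the 105. With the log2 total count as a covariate 85 of the 90 lost the call, and the log2 fold change turned sign for 14. These 14 were MUP15, CES2A, ABCB11, EDEM1, HSPD1, HC, SERPINA10, F11, SQSTM1, MYB, AEN, IFITM3, CYCS and PSMB4.

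**Figure D3:**
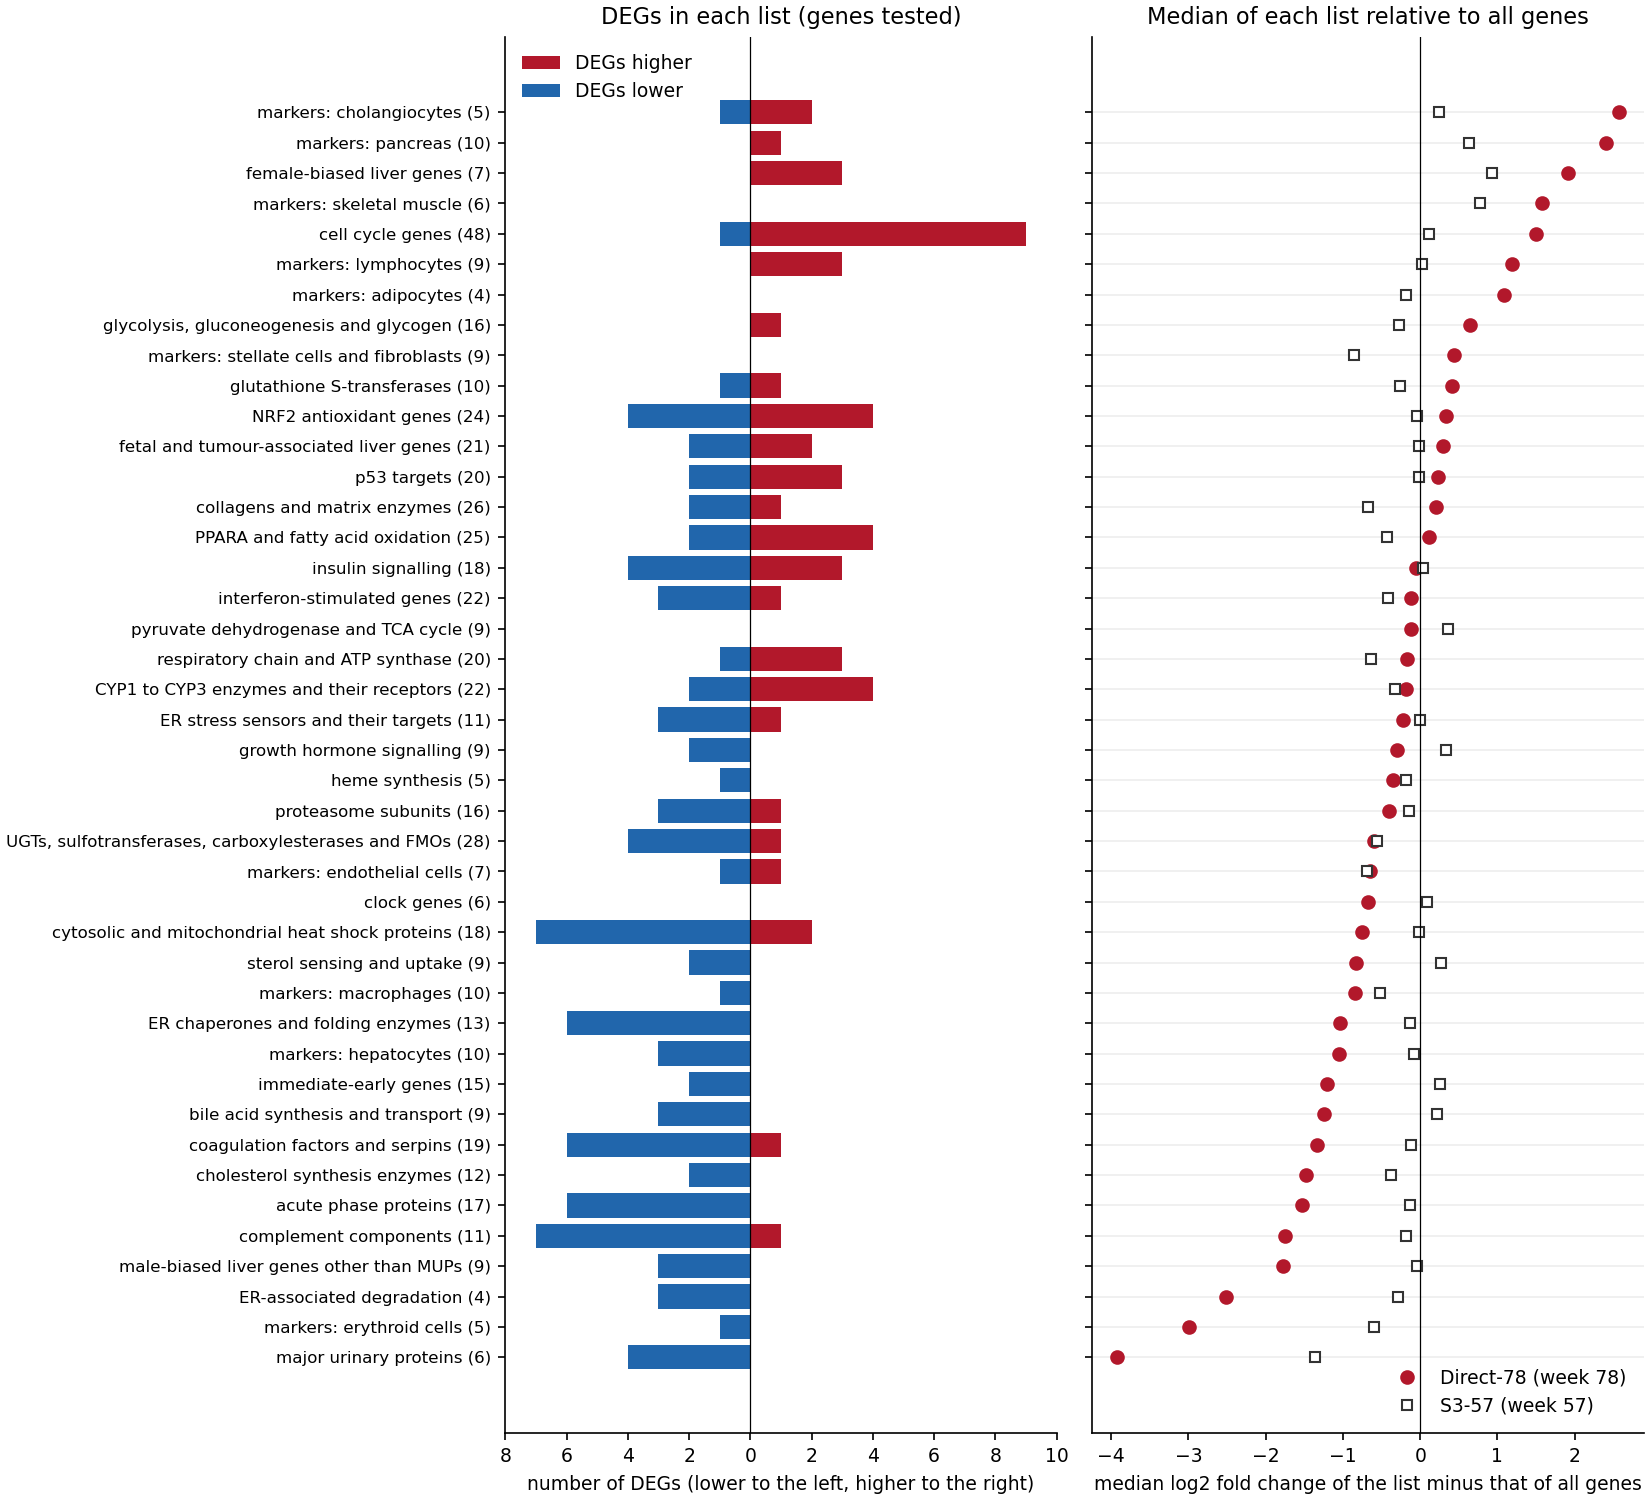
Number of DEGs higher and lower in Direct-78 in each gene list reported, with the number of genes tested in brackets (left), and the median log2 fold change of each list minus that of all genes (right) for Direct-78 against Control-78 and, for comparison, S3-57 against Control-57. Major urinary proteins, complement and acute phase proteins lay well below 0 after 78 weeks, at -3.92, -1.75 and -1.53.

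Liver genes with sex-biased expression in mice were called in both directions. Of 7 tested female-biased genes, 3 rose and none fell. CYP2A4, a steroid hydroxylase, was at 1019, 1471 and 165 CPM in mice 64, 65 and 66, and at 10.1 to 62.3 CPM (median 27.6) in Control-78. SULT3A1, an amine sulfotransferase, was at 11.1, 79.4 and 25.6 CPM against 0 to 1.30 CPM (median 0.698). CYP4A14, a fatty acid hydroxylase that PPARA induces, was at 433, 3211 and 386 CPM against 0 to 53.2 CPM (median 0.837). For all 3 genes every Direct-78 library lay above every Control-78 library, although the highest control for CYP4A14, mouse 86, stood apart from the others. The tests gave log2 fold change 4.74 ± 1.35 (SE), edgeR adjusted p = 0.0118 for CYP2A4, log2 fold change 5.70 ± 1.53 (SE), edgeR adjusted p = 0.00793 for SULT3A1, and log2 fold change 7.30 ± 2.07 (SE), edgeR adjusted p = 0.0114 for CYP4A14. These 3 calls held with any 1 library of the 2 groups left out, and the log2 fold change of CYP4A14 was 10.32 without mouse 86. None of the 3 was called with the log2 total count as a covariate. The log2 fold changes were then 1.01 for CYP2A4, 0.04 for SULT3A1 and 3.35 for CYP4A14. With the count of genes detected per library as a covariate CYP4A14 was not called (log2 fold change 3.65, edgeR adjusted p = 0.188). In the Direct-78 libraries that the authors left out (mice 61, 62 and 63), with the scaling of all 78 libraries, CYP2A4 was at 1.49, 12.1 and 254 CPM against 10.7 to 70.8 CPM in Control-78, and CYP4A14 at 0, 25.3 and 238 CPM against 0 to 36.2, so that only mouse 63 lay above the controls for these 2 genes. SULT3A1 was at 14.9, 138 and 68.6 CPM against 0 to 1.45. CYP2A4 is nearly identical to the gene CYP2A5, so its probe may count both. CYP3A41A, the most abundant member of the list, was not called (log2 fold change -0.07 ± 0.85 (SE), edgeR adjusted p = 0.962). It was at 662, 939 and 954 CPM in mice 64, 65 and 66 against 210.4 to 2356 CPM (median 669) in Control-78.

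Of 9 tested male-biased genes other than MUPs, 3 fell and none rose. ELOVL3, a fatty acid elongase, was at 0, 0 and 11 CPM in mice 64, 65 and 66 and at 104 to 3172 CPM (median 1605) in Control-78. GSTP1, a glutathione transferase, was at 2262, 3872 and 4041 CPM against 11405 to 24547 CPM (median 21294). Neither gene overlapped between the groups (log2 fold change -8.92 ± 2.08 (SE), edgeR adjusted p = 0.00224 for ELOVL3, and log2 fold change -2.54 ± 0.57 (SE), edgeR adjusted p = 0.00150 for GSTP1), and both calls held with any 1 library left out. The log2 fold change of ELOVL3 was -14.82 without mouse 66, a fitted value that depends on the prior count because the other 2 Direct-78 libraries were at 0. The third was CES2A, a carboxylesterase (log2 fold change -2.16 ± 0.64 (SE), edgeR adjusted p = 0.0140), whose call was lost without mouse 64 or 66 (edgeR adjusted p up to 0.0869). The GSTP1 probe may also count the nearly identical GSTP2.

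Major urinary proteins (MUPs) are pheromone carriers that male mouse liver secretes under the pulsatile growth hormone of males. Of 6 tested, 4 fell and none rose. MUP19 was at 319, 259.8 and 2949.9 CPM in mice 64, 65 and 66 and at 33559 to 52045 CPM (median 43133) in Control-78. MUP3 was at 1679, 1999 and 2911 CPM against 10970.0 to 15197 CPM (median 11821). Mouse 66 was the highest of Direct-78 for both, and all Direct-78 libraries lay below all Control-78 libraries, as they did for MUP15 and GM2083. MUP8, the gene with the most counts of the list, was at 32272, 6464 and 282291 CPM against 86576 to 606438 CPM (median 225615). Mouse 66 lay among the controls, and MUP8 was not called (log2 fold change -1.27 ± 1.05 (SE), edgeR adjusted p = 0.371). Its log2 fold change ranged from -3.72 without mouse 66 (edgeR adjusted p = 0.0757) to -0.74 without mouse 65. The log2 fold changes of the called members were -6.98 ± 1.99 (SE) for GM2083, -5.27 ± 1.88 for MUP15, -5.19 ± 1.48 for MUP19 and -2.52 ± 0.91 for MUP3, with edgeR adjusted p of 0.0119, 0.0381, 0.0115 and 0.0412. None of the 4 calls held without mouse 64 (edgeR adjusted p 0.0628, 0.132, 0.0655 and 0.138), those of MUP15 and MUP3 were also lost without mouse 65, 66, 87 or 90, and that of MUP3 without mouse 89 (edgeR adjusted p up to 0.132 for MUP15 and 0.138 for MUP3). The call of MUP3 was also lost with the count of detected genes as a covariate (edgeR adjusted p = 0.0572). MUP genes are close copies of each other, so the counts of single members are uncertain.

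Growth hormone acts on the liver through its receptor and STAT5B. GHR, the receptor, was at 171, 261 and 62.3 CPM in mice 64, 65 and 66 and at 352 to 829 CPM (median 604) in Control-78, and HNF4A, a transcription factor of hepatocytes, at 416, 955 and 341 CPM against 716 to 2943 CPM (median 2084). The groups did not overlap for GHR and overlapped for HNF4A, where mouse 65 lay within the controls. Both fell (log2 fold change -1.85 ± 0.60 (SE), edgeR adjusted p = 0.0228 for GHR, and log2 fold change -1.85 ± 0.60 (SE), edgeR adjusted p = 0.0239 for HNF4A), and no other of the 9 tested genes of growth hormone signalling was called. Both calls were lost without mouse 64 or 66, with edgeR adjusted p up to 0.137 and 0.125. STAT5B was at 51.6, 54.8 and 62.3 CPM against 42.2 to 101 CPM (median 90.4) and did not pass the test (log2 fold change -0.51 ± 0.43 (SE), edgeR adjusted p = 0.383). HNF4A is also a hepatocyte marker: 3 of 10 tested markers of hepatocytes fell and none rose, with a median of -1.05 relative to all genes, while the summed CPM of the list were 48519, 52879 and 70568 in mice 64, 65 and 66 and 64608 to 129918 in Control-78. In sections of whole tissue, fewer cells of a type and less RNA per cell cannot be told apart.

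Genes of fatty acid uptake and oxidation, many of them targets of the fatty acid receptor PPARA, were called in both directions. Of 25 tested, 4 rose (CYP4A14, CD36, SLC27A1 and ACADM), 2 fell, and the median was 0.12 relative to all genes. Of all genes tested 9.98% rose and 11.6% fell. ACADM, the medium-chain acyl-CoA dehydrogenase of mitochondrial beta-oxidation, was at 3401, 2649 and 4807 CPM in mice 64, 65 and 66 against 579.7 to 2101 CPM (median 806) in Control-78. SLC27A1, a fatty acid transporter, was at 303, 140.0 and 357 CPM against 43.3 to 138 CPM (median 50.8). For these 2 genes all Direct-78 libraries lay above all controls (log2 fold change 1.77 ± 0.35 (SE), edgeR adjusted p = 0.000426 for ACADM, and log2 fold change 2.02 ± 0.44 (SE), edgeR adjusted p = 0.00131 for SLC27A1), and both calls held with any 1 library left out. ACADM falls outside the rule for named genes and was picked after its values were seen. CD36, a fatty acid translocase, also rose (log2 fold change 2.37 ± 0.77 (SE), edgeR adjusted p = 0.0239), a call lost without mouse 64 or 65 (edgeR adjusted p up to 0.0723). SLC27A2, the main very long chain acyl-CoA synthetase of liver, was at 1202, 3089.6 and 1003 CPM against 3163 to 5363 CPM (median 4262) and fell (log2 fold change -1.29 ± 0.46 (SE), edgeR adjusted p = 0.0376), a call lost without mouse 64, 66, 85, 89 or 90 (edgeR adjusted p up to 0.184), while its log2 fold change was -1.98 without mouse 65. FABP1, which carries fatty acids in the cytosol, was at 30947, 50175 and 17742 CPM against 14774 to 33755 CPM (median 20736), PPARA itself at 1239, 320.4 and 784 CPM against 168 to 1127 CPM (median 410.5), and neither passed the test (edgeR adjusted p = 0.388 and 0.282).

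**Figure D4:**
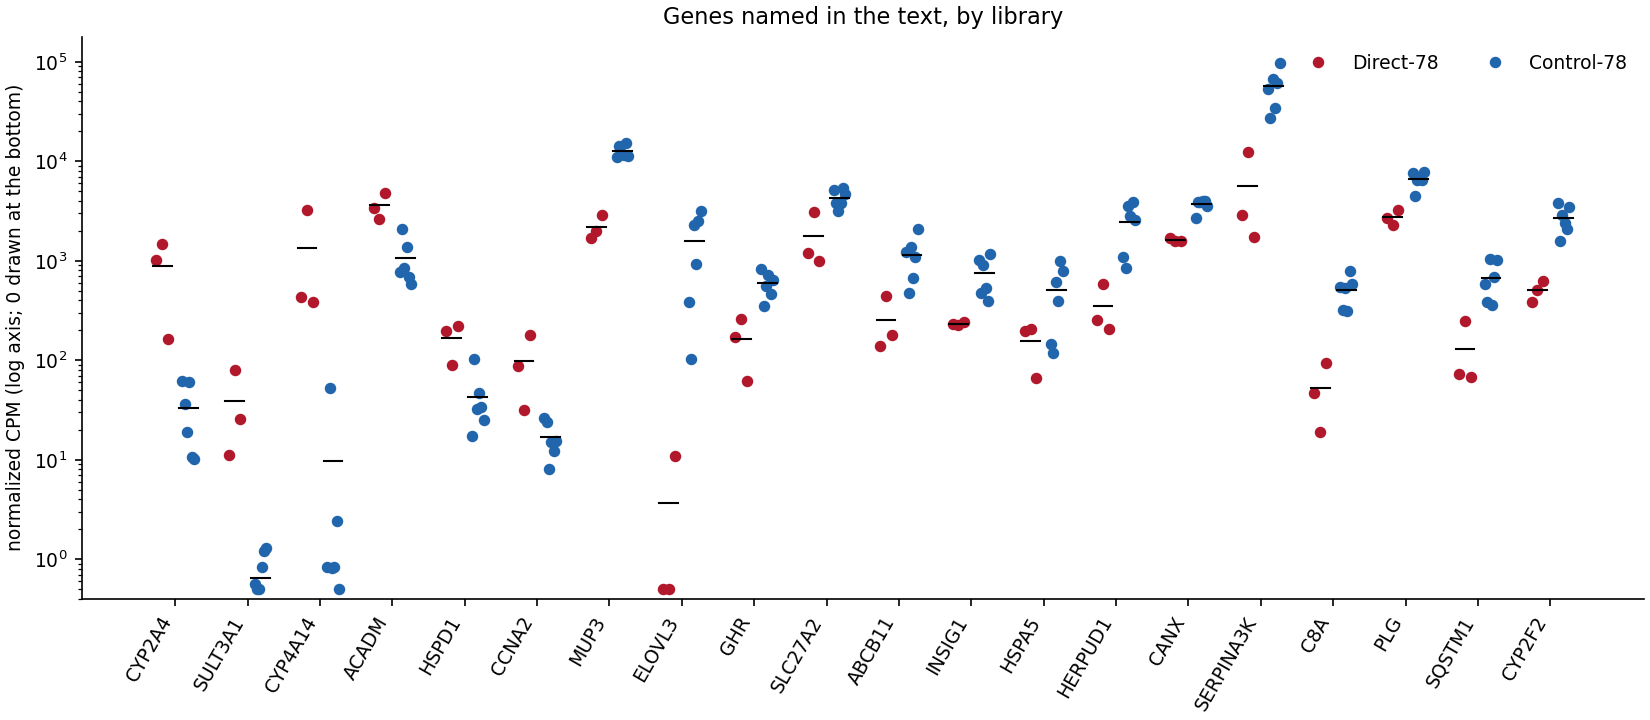
Normalized CPM (log axis) of 20 genes described in the text in the 3 Direct-78 and the 6 Control-78 libraries. Each point is 1 library, horizontal lines are group means, and values of 0 are drawn at the bottom. CYP2A4 lay between 165 and 1471 CPM in Direct-78 and between 10.1 and 62.3 CPM in Control-78.

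All 12 tested enzymes of cholesterol synthesis had negative log2 fold changes, of which 2, CYP51 and DHCR7, passed the test, and of 9 genes of sterol sensing and uptake 2 fell and none rose. CYP51, the lanosterol demethylase, was at 46.7, 59.2 and 117 CPM in mice 64, 65 and 66 and at 133 to 399.5 CPM (median 225) in Control-78, without overlap (log2 fold change -1.70 ± 0.53 (SE), edgeR adjusted p = 0.0190). DHCR7, which catalyzes the last step of the pathway, was at 52.8, 43.3 and 25.6 CPM against 45.9 to 204 CPM (median 121), where mouse 64 lay above the lowest control (log2 fold change -1.57 ± 0.48 (SE), edgeR adjusted p = 0.0185). The call of CYP51 was lost without mouse 64 (edgeR adjusted p up to 0.111), and that of DHCR7 without mouse 66 (edgeR adjusted p up to 0.112). INSIG1, which holds the sterol sensor SCAP in the ER and is itself a target of SREBP2, was at 232, 224 and 239.9 CPM against 391 to 1178 CPM (median 719). It was nearly the same in the 3 Direct-78 libraries and below every control (log2 fold change -1.70 ± 0.45 (SE), edgeR adjusted p = 0.00705), and the call held with any 1 library left out. ACAT2, the gene with the most counts among the synthesis enzymes, was at 2748, 2827 and 3250.2 CPM against 2266 to 3771 CPM (median 3270.1) and was not called (log2 fold change -0.09 ± 0.25 (SE), edgeR adjusted p = 0.795). TMEM97, a sterol-regulated membrane protein, fell (log2 fold change -0.87 ± 0.31 (SE), edgeR adjusted p = 0.0340), but in only 2 of 5 draws at equal depth and not without mouse 65, 66 or 87 (edgeR adjusted p up to 0.219), with a log2 fold change of -1.46 without mouse 64 and -0.51 without mouse 65.

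Of 9 tested genes of bile acid synthesis and transport, 3 fell and none rose, with a median of -1.25 relative to all genes. BAAT, which conjugates bile acids to taurine, was at 176, 95.2 and 239.9 CPM in mice 64, 65 and 66 against 317 to 661 CPM (median 572) in Control-78. ABCB11, the bile salt export pump of the canaliculus, was at 140.0, 439 and 179 CPM against 470.2 to 2077 CPM (median 1154). Neither overlapped (log2 fold change -1.67 ± 0.43 (SE), edgeR adjusted p = 0.00550 for BAAT, and log2 fold change -2.19 ± 0.71 (SE), edgeR adjusted p = 0.0228 for ABCB11). SLC10A2, the sodium-dependent bile acid transporter of cholangiocytes and ileum, was at 0, 28.9 and 0 CPM against 9.01 to 506 CPM (median 78), where mouse 65 lay within the controls (log2 fold change -3.88 ± 0.98 (SE), edgeR adjusted p = 0.00506). The calls of BAAT and SLC10A2 held with any 1 library left out, and that of ABCB11 was lost without mouse 64, 66 or 90 (edgeR adjusted p up to 0.117). ABCB11 was also not called with the log2 total count as a covariate, where its log2 fold change was positive. The log2 fold change of SLC10A2 ranged from -2.87 without mouse 90 to -11.38 without mouse 65, a fitted value that depends on the prior count because the other 2 Direct-78 libraries were at 0. CYP8B1, the sterol hydroxylase of cholic acid synthesis, was at 2430.1, 675 and 1849 CPM against 1354 to 2554 CPM (median 1968) and was not called (edgeR adjusted p = 0.798).

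Of 13 tested ER chaperones and folding enzymes, 6 fell and none rose, with a median of -1.04 relative to all genes. Of the 6 calls, 1 was kept without mouse 64, 5 without mouse 65, 3 without mouse 66 and 2 with only the compared groups. PPIB, 1 of the 6 and the most abundant member, was called in 0 of 5 draws at equal depth. The promoters of several members of the list share an element, so their sequences are shown. The ER stress element, CCAAT and CCACG with 9 bases between them, was searched on both strands in the 250 bases before the start sites of RefSeq genes (GRCm38.p6). Exact matches were in 37 of 32851 promoters (0.113%), and in those of 7 of the 10 list members that had an entry: HSPA5, CANX, PDIA6 and CRELD2, which fell, and HSP90B1, CALR and ERO1LB, which were not called. The match and 20 bases on each side are written 5′ to 3′ on the strand of the gene, with the match in capitals.
HSPA5, chr2:34772005-34772063, forward strand: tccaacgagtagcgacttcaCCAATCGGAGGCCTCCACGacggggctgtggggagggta
CANX, chr11:50325780-50325838, reverse strand: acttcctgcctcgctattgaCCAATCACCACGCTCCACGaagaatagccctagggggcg
PDIA6, chr12:17266471-17266529, forward strand: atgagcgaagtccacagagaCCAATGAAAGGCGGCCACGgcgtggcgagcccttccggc
CRELD2, chr15:88819500-88819558, forward strand: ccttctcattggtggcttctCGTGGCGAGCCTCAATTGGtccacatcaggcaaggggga
HSP90B1, chr10:86705618-86705676, reverse strand: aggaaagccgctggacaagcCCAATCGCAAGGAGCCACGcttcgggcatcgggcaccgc
CALR, chr8:84847055-84847113, reverse strand: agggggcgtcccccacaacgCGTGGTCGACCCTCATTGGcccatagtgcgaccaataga
ERO1LB, chr13:12565662-12565720, forward strand: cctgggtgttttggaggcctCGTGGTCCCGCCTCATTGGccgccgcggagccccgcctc
In CRELD2, CALR and ERO1LB the match is on the opposite strand and reads as its reverse complement. HSP90B1 holds 2 matches, of which the first is shown. A match describes these letters only, and no binding was measured.

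HSPA5 encodes BiP, the main ER chaperone, and was at 195, 206 and 65.9 CPM in mice 64, 65 and 66 against 119.6 to 1007 CPM (median 502) in Control-78. CANX encodes calnexin, which holds glycoproteins during folding, and was at 1677, 1580.2 and 1588 CPM against 2711 to 4022 CPM (median 3904). PDIA6, a protein disulfide isomerase, was at 0, 0 and 18.3 CPM against 27.9 to 72.7 CPM (median 38). The groups overlapped for HSPA5, where mice 64 and 65 lay above the lowest control, and did not overlap for CANX and PDIA6. The tests gave log2 fold change -1.71 ± 0.55 (SE), edgeR adjusted p = 0.0225 for HSPA5, log2 fold change -1.19 ± 0.25 (SE), edgeR adjusted p = 0.000760 for CANX, and log2 fold change -2.89 ± 0.82 (SE), edgeR adjusted p = 0.0112 for PDIA6. CRELD2, another disulfide isomerase, was at 16, 0 and 80.6 CPM against 30.3 to 233 CPM (median 135) with overlap (log2 fold change -2.10 ± 0.72 (SE), edgeR adjusted p = 0.0311) and was called in 3 of 5 draws at equal depth. The call of CANX, chosen once its values had been seen, held with any 1 library left out. That of PDIA6 was lost without mouse 64 (edgeR adjusted p = 0.0857), that of HSPA5 without mouse 64, 66 or 89 (edgeR adjusted p up to 0.142), and that of CRELD2 without mouse 64, 65, 89 or 90 (edgeR adjusted p up to 0.149). The fall of CRELD2 was larger without mouse 66 (edgeR adjusted p = 0.00434), and the log2 fold change of PDIA6 was then -9.60, a fitted value that depends on the prior count because the other 2 Direct-78 libraries were at 0. Of the members with the element that were not called, HSP90B1 was at 2924, 1420.0 and 3472 CPM against 1707 to 2981 CPM (median 2423), CALR at 921, 473 and 1234 CPM against 259 to 945 CPM (median 530.3), and ERO1LB at 39.3, 14.4 and 93.4 CPM against 29.5 to 147 CPM (median 87.6), with edgeR adjusted p of 0.848, 0.404 and 0.229. These 3 are described because of the element and were chosen after their values were seen, as CANX was.

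ER-associated degradation returns misfolded proteins to the cytosol for the proteasome. Of 4 tested genes of this list, 3 fell, and none of the 4 promoters held the element. HERPUD1, a scaffold of the retrotranslocation complex, was at 253, 586 and 207 CPM in mice 64, 65 and 66 against 855 to 3899 CPM (median 2716) in Control-78, below every control (log2 fold change -2.82 ± 0.55 (SE), edgeR adjusted p = 0.000426), and held with any 1 library left out. SEL1L, the adaptor of the ubiquitin ligase HRD1, was at 79.8, 147 and 75.1 CPM against 96.7 to 657 CPM (median 431), with mouse 65 above the lowest control (log2 fold change -2.06 ± 0.57 (SE), edgeR adjusted p = 0.0101). EDEM1, which extracts misfolded glycoproteins, was at 0, 64.9 and 0 CPM against 12.3 to 927 CPM (median 301) (log2 fold change -4.10 ± 1.48 (SE), edgeR adjusted p = 0.0406). The call of SEL1L was lost without mouse 64 or 66 (edgeR adjusted p up to 0.0616) and that of EDEM1 without mouse 64, 66, 85, 89 or 90 (edgeR adjusted p up to 0.149). Without mouse 65 the log2 fold change of EDEM1 was -12.76, a fitted value that depends on the prior count because the other 2 Direct-78 libraries were at 0. Among 11 sensors of ER stress and their targets, ATF6, a sensor, fell to 23.3, 13 and 11 CPM against 17.2 to 95.8 CPM (median 86.4), with mouse 64 above the lowest control (log2 fold change -2.19 ± 0.63 (SE), edgeR adjusted p = 0.0128). TRIB3, a pseudokinase induced by ATF4 and CHOP, rose to 257, 177 and 459.6 CPM against 19.9 to 88.5 CPM (median 55), without overlap (log2 fold change 2.56 ± 0.84 (SE), edgeR adjusted p = 0.0247). The list had 1 gene higher and 3 lower, and a median of -0.22. The call of ATF6 was lost without mouse 66 (edgeR adjusted p up to 0.0738), and that of TRIB3 without mouse 64, 66, 87 or 90 (edgeR adjusted p up to 0.123).

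Of 18 tested heat shock genes of the cytosol and mitochondria, 7 fell and 2 rose. Of the 9 calls, 3 were kept without mouse 64, 8 without mouse 65, 4 without mouse 66 and 4 with only the compared groups. HSP90AA1, the inducible cytosolic HSP90, was at 1128, 736 and 903 CPM in mice 64, 65 and 66 and at 1266 to 3738 CPM (median 2743) in Control-78, and DNAJB1, a co-chaperone of HSP70, at 29.5, 5.77 and 7.32 CPM against 11.5 to 481 CPM (median 52.5). All Direct-78 libraries were below the controls for HSP90AA1, and 2 of 3 were for DNAJB1. Both calls held with any 1 library left out (log2 fold change -1.55 ± 0.38 (SE), edgeR adjusted p = 0.00395 for HSP90AA1, and log2 fold change -3.17 ± 0.80 (SE), edgeR adjusted p = 0.00497 for DNAJB1), where the log2 fold change of DNAJB1 was -2.05 without mouse 90. In the other direction, HSPD1, the mitochondrial HSP60, was at 196, 89.5 and 219.7 CPM against 17.3 to 102 CPM (median 33.3), with mouse 65 below the highest control, mouse 86 (log2 fold change 1.98 ± 0.57 (SE), edgeR adjusted p = 0.0129), a call lost without mouse 64 or 66 (edgeR adjusted p up to 0.0690). Of 16 proteasome subunits, 1 rose (PSMB4, log2 fold change 2.60 ± 0.69 (SE), edgeR adjusted p = 0.00752, lost without mouse 66 (edgeR adjusted p up to 0.0660)) and 3 fell.

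Of 17 tested acute phase proteins, which the liver secretes in inflammation, 6 fell and none rose. SERPINA3K was at 2877, 12357 and 1721 CPM in mice 64, 65 and 66 and at 27272 to 97231 CPM (median 57268) in Control-78. FGB, the fibrinogen beta chain, was at 136, 284 and 156 CPM against 392 to 3162 CPM (median 1904). For both genes every Direct-78 library lay below every control (log2 fold change -3.33 ± 0.90 (SE), edgeR adjusted p = 0.00846 for SERPINA3K, and log2 fold change -3.29 ± 0.94 (SE), edgeR adjusted p = 0.0115 for FGB). Serum amyloid A, in contrast, varied widely among controls: SAA1 was at 152, 126 and 134 CPM against 54.9 to 45830.0 CPM (median 8634), so that the Direct-78 values lay above the lowest control, mouse 86 (log2 fold change -6.88 ± 2.16 (SE), edgeR adjusted p = 0.0207). SERPINA3N (log2 fold change -3.55 ± 1.30 (SE), edgeR adjusted p = 0.0424) and SAA2 (log2 fold change -6.40 ± 2.42 (SE), edgeR adjusted p = 0.0486) also fell, SAA2 in none of 5 draws at equal depth. Without mouse 64 or without mouse 66 none of the 6 calls was kept. The edgeR adjusted p were 0.0570 and 0.0629 for SERPINA3K, 0.0614 and 0.0598 for FGB, 0.0747 and 0.0784 for SAA1, 0.116 and 0.0784 for SERPINA3N and 0.135 and 0.135 for SAA2. SERPINA3N was also not called without mouse 65, 87, 89 or 90, nor SAA2 without mouse 65, 85, 87, 89 or 90 (edgeR adjusted p up to 0.116 and 0.135). SAA1 with SAA2, and SERPINA3K with SERPINA3N, are close copies, so that their probes may count each other.

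Complement is a cascade of plasma proteins that ends in the membrane attack complex. Of 11 tested components, 7 fell and 1 rose. C8A, a chain of that complex, was at 46.7, 18.8 and 93.4 CPM in mice 64, 65 and 66 against 316 to 785 CPM (median 540.0) in Control-78. C9, which forms its pore, was at 3458, 2056 and 6799 CPM against 13449 to 61782 CPM (median 25163), and C8B at 92.1, 154 and 289 CPM against 563 to 1416 CPM (median 1074). No Direct-78 library reached a control for any of the 3 genes (log2 fold change -3.29 ± 0.53 (SE), edgeR adjusted p = 3.67e-05 for C8A, log2 fold change -2.79 ± 0.88 (SE), edgeR adjusted p = 0.0213 for C9, and log2 fold change -2.62 ± 0.79 (SE), edgeR adjusted p = 0.0164 for C8B). HC, which encodes C5, was at 451, 618 and 399 CPM against 388 to 5253 CPM (median 2396), and C3, on which the pathways converge, at 2006, 2309 and 1595 CPM against 2014 to 8879.7 CPM (median 6045). These 2, chosen after their values were seen, overlapped between the groups, and mouse 86 was the lowest control for both (log2 fold change -2.40 ± 0.58 (SE), edgeR adjusted p = 0.00316 for HC, and log2 fold change -1.64 ± 0.50 (SE), edgeR adjusted p = 0.0169 for C3). MBL2, a lectin that starts the cascade, rose to 166, 114 and 390.0 CPM against 38.1 to 95 CPM (median 59), above every control (log2 fold change 1.81 ± 0.39 (SE), edgeR adjusted p = 0.00112). The calls of C8A and HC held with any 1 library left out, while that of C9 was lost without mouse 64 or 65 (edgeR adjusted p up to 0.0857), C8B without mouse 64 (edgeR adjusted p up to 0.0902), C3 without mouse 64 or 66 (edgeR adjusted p up to 0.0828) and MBL2 without mouse 66 (edgeR adjusted p up to 0.0717), where the log2 fold change of MBL2 was 1.16. With the log2 total count as a covariate HC was not called and its log2 fold change was 0.20.

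Among 19 tested coagulation factors and their serpin inhibitors, 6 fell, 1 rose, and the median was -1.34 relative to all genes. Of the 7 calls, 3 were kept without mouse 64, 5 without mouse 65 and 1 without mouse 66. PLG, the precursor of plasmin, was at 2684, 2283 and 3261 CPM in mice 64, 65 and 66 against 4447 to 7782 CPM (median 6629.8) in Control-78, and F11, coagulation factor XI, at 259, 222 and 150.2 CPM against 370.3 to 939 CPM (median 594). Neither overlapped (log2 fold change -1.27 ± 0.36 (SE), edgeR adjusted p = 0.0111 for PLG, chosen once its values had been seen, and log2 fold change -1.53 ± 0.47 (SE), edgeR adjusted p = 0.0171 for F11). SERPINA10, the inhibitor of factor Xa that depends on protein Z, was at 54, 26 and 25.6 CPM against 34.4 to 1405 CPM (median 873), where mouse 64 lay above the lowest control (log2 fold change -4.41 ± 1.25 (SE), edgeR adjusted p = 0.0115). VTN, vitronectin, was at 13859, 9013 and 16407 CPM against 13500.0 to 26372 CPM (median 19225) and was not called (edgeR adjusted p = 0.354). The call of PLG was lost without mouse 64 (edgeR adjusted p = 0.0514), and those of F11 and SERPINA10 without mouse 66 (edgeR adjusted p = 0.0974 and 0.0604). Neither F11 nor SERPINA10 was called with the log2 total count as a covariate, where both log2 fold changes were positive.

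Genes of the antioxidant response, which the transcription factor NRF2 controls, split evenly, with 4 of 24 higher and 4 lower. SQSTM1, the autophagy receptor p62, was at 72.4, 249.7 and 67.8 CPM in mice 64, 65 and 66 against 362 to 1049.7 CPM (median 634) in Control-78, below every control (log2 fold change -2.38 ± 0.50 (SE), edgeR adjusted p = 0.000784). Its call held with any 1 library left out, but not with the log2 total count as a covariate, where the log2 fold change was 0.03. This gene was picked after its values were seen. SRXN1, sulfiredoxin, was at 31.9, 98.1 and 47.6 CPM against 56.9 to 2725 CPM (median 108), with overlap, where the highest control, mouse 90, stood apart (log2 fold change -3.34 ± 0.93 (SE), edgeR adjusted p = 0.0102). AKR1B10, an aldo-keto reductase, was at 78.6, 8.66 and 201 CPM against 2.09 to 26.2 CPM (median 10.8), with mouse 65 within the controls (log2 fold change 3.02 ± 0.84 (SE), edgeR adjusted p = 0.00993), and NQO1, a quinone reductase, at 45.4, 85.1 and 0 CPM against 3.05 to 10.9 CPM (median 8.71), with mouse 66 at 0 (log2 fold change 2.58 ± 0.80 (SE), edgeR adjusted p = 0.0186, called in 4 of 5 draws at equal depth). UGDH, which makes UDP-glucuronic acid, was at 27217, 14680.5 and 52344 CPM against 3167 to 19745 CPM (median 11251). It did not pass the test (log2 fold change 1.51 ± 0.82 (SE), edgeR adjusted p = 0.160). With single libraries left out its log2 fold change ranged from 0.95 without mouse 66 to 1.84 without mouse 65. The calls of SRXN1, NQO1 and AKR1B10 were lost without mouse 64, 66 or 90 (edgeR adjusted p up to 0.131), without mouse 64 or 65 (edgeR adjusted p up to 0.147) and without mouse 66 (edgeR adjusted p up to 0.152), and the log2 fold changes were -1.55 for SRXN1 without mouse 90, 1.66 for NQO1 without mouse 65 and 1.92 for AKR1B10 without mouse 66. The core of the antioxidant response element on either strand was in the promoters of 9 of 20 list members with an entry, against 10.2% of all promoters, and 1 of these 9, PRDX1, was called (lower, and named only because it was the single one). Exact matches of the sterol regulatory element were in 1 of 9 promoters of cholesterol synthesis enzymes, against 0.496% of all promoters. The gene with this match was not called. The PPAR response element was in none of 19 promoters of the PPARA list, against 0.0335% of all promoters. At so low a share, none of 19 decides nothing.

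Of 22 tested cytochromes P450 of families 1 to 3 and their receptors, 4 rose and 2 fell. CYP2C38 was at 449, 444 and 403 CPM in mice 64, 65 and 66 and at 2.74 to 92.6 CPM (median 13.1) in Control-78. It was above every control (log2 fold change 4.04 ± 0.90 (SE), edgeR adjusted p = 0.00150), and the call held with any 1 library left out, but its probe may count CYP2C39, a close copy that also rose. CYP2F2, an enzyme that activates naphthalene, was at 386, 508 and 624 CPM against 1584 to 3807 CPM (median 2636), below every control (log2 fold change -2.42 ± 0.79 (SE), edgeR adjusted p = 0.0236), and lost its call without mouse 64 or 66 (edgeR adjusted p up to 0.0999). CYP2E1, the ethanol-inducible enzyme, was at 2991, 9866 and 4545 CPM against 10042 to 19499 CPM (median 10927): all 3 Direct-78 libraries lay below all controls, but the gene was not called (log2 fold change -1.08 ± 0.64 (SE), edgeR adjusted p = 0.206). With single libraries left out the log2 fold change of CYP2E1 ranged from -1.71 without mouse 65 to -0.76 without mouse 64. Of 10 glutathione transferases, GSTA1 rose and GSTP1 fell. GSTA1 was at 437, 251 and 309 CPM against 4.47 to 79.5 CPM (median 45.6), without overlap (log2 fold change 2.92 ± 1.11 (SE), edgeR adjusted p = 0.0497), in 3 of 5 draws at equal depth, and lost its call without mouse 64, 66, 85, 87, 88, 89 or 90 (edgeR adjusted p up to 0.131) and with TMM factors (edgeR adjusted p = 0.0790). Of 28 UGTs, sulfotransferases, carboxylesterases and flavin monooxygenases, 4 fell and 1 rose, SULT3A1.

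Of 48 tested cell cycle genes, 9 rose and 1 fell. CCNA2, cyclin A2, chosen once its values had been seen, was at 87.2, 31.7 and 179 CPM in mice 64, 65 and 66 against 8.10 to 26 CPM (median 15.2) in Control-78. MCM6, a subunit of the replicative helicase, was at 8.60, 21.6 and 60.4 CPM against 1.22 to 7.37 CPM (median 2.76), and CDKN1B, an inhibitor of cyclin-dependent kinases, at 578, 677 and 1027 CPM against 161 to 469 CPM (median 204). All Direct-78 libraries lay above all controls for these 3 genes, with mouse 66 the highest (log2 fold change 2.57 ± 0.65 (SE), edgeR adjusted p = 0.00497 for CCNA2, log2 fold change 3.24 ± 0.90 (SE), edgeR adjusted p = 0.00956 for MCM6, and log2 fold change 1.58 ± 0.43 (SE), edgeR adjusted p = 0.00864 for CDKN1B). CDK6, a kinase that starts the cycle, fell (log2 fold change -1.96 ± 0.65 (SE), edgeR adjusted p = 0.0262). All 4 calls were lost without mouse 66 (edgeR adjusted p 0.0784, 0.125, 0.0717 and 0.151), where only 1 of the 10 calls of the list was kept, and that of CDK6 also without mouse 64 (edgeR adjusted p = 0.139), while its log2 fold change was -3.94 without mouse 65. Among the largest rises of all genes tested were HMGB2, a chromatin protein of dividing cells (356, 75 and 498 CPM against 6.52 to 67.2 CPM (median 14.2)), and RAD54B, a helicase of homologous recombination (44.2, 26 and 20.1 CPM against 0 to 1.68 CPM (median 1.09)). Both were above every control and kept the call with any 1 library left out (log2 fold change 3.74 ± 0.79 (SE), edgeR adjusted p = 0.000820 for HMGB2, and log2 fold change 4.94 ± 1.16 (SE), edgeR adjusted p = 0.00229 for RAD54B). NEIL3, a DNA glycosylase (log2 fold change 3.82 ± 1.12 (SE), edgeR adjusted p = 0.0141), and MYB, a transcription factor of progenitor cells (log2 fold change 5.03 ± 1.51 (SE), edgeR adjusted p = 0.0163), lost their calls without mouse 64 (edgeR adjusted p up to 0.0846) and without mouse 66 (edgeR adjusted p up to 0.0572). The median of cell cycle genes, 1.5 relative to all genes, stands beside 1.58 for markers of skeletal muscle and 2.40 for markers of pancreas, which liver hardly expresses. The second group of 441 genes by abundance had a median log2 fold change of 0.74, not taken relative to all genes. The part of low abundance or of other tissue in these rises was not tested.

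Among 20 tested p53 targets, 3 rose and 2 fell, where 9.98% of all genes tested rose and 11.6% fell. Of the 5 calls, 5 were kept without mouse 64, 4 without mouse 65 and 2 without mouse 66. GDF15, a secreted stress cytokine, was at 98.2, 44.7 and 187 CPM in mice 64, 65 and 66 against 3.58 to 37.7 CPM (median 16.4) in Control-78, and AEN, an exonuclease of apoptosis, at 179, 391 and 249 CPM against 45.8 to 108 CPM (median 82). Neither overlapped (log2 fold change 2.70 ± 0.69 (SE), edgeR adjusted p = 0.00550 for GDF15, and log2 fold change 1.79 ± 0.47 (SE), edgeR adjusted p = 0.00635 for AEN). The call of AEN held with any 1 library left out, but not with the log2 total count as a covariate, where the log2 fold change was -0.01. That of GDF15 was lost without mouse 66 (edgeR adjusted p up to 0.0660). Of 21 fetal and tumor-associated liver genes, 2 rose, AKR1B10 and KRT19, and 2 fell.

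Interferon-stimulated genes were called in both directions, 3 lower and 1 higher of 22, where 21.5% of all genes tested were called. IRF7, the interferon regulatory factor that feeds the response forward, was at 3.68, 15.9 and 0 CPM in mice 64, 65 and 66 against 61.9 to 129 CPM (median 81.7) in Control-78. IFITM3, a membrane protein that restricts virus entry, was at 0, 21.6 and 7.32 CPM against 9.62 to 1531 CPM (median 535). IRF7 did not overlap (log2 fold change -3.67 ± 0.77 (SE), edgeR adjusted p = 0.000748) and held with any 1 library left out, while IFITM3 varied widely among controls and overlapped (log2 fold change -6.07 ± 2.04 (SE), edgeR adjusted p = 0.0281). Its call was lost without mouse 64 or 66 (edgeR adjusted p up to 0.117). IFITM3 was also not called with the log2 total count as a covariate, where its log2 fold change was positive. IFIT3 rose (log2 fold change 2.04 ± 0.71 (SE), edgeR adjusted p = 0.0323), mainly in mouse 64 (70, 4.33 and 18.3 CPM), in 3 of 5 draws at equal depth, and not without mouse 64, 87, 89 or 90 (edgeR adjusted p up to 0.659, with a log2 fold change of 0.58 without mouse 64) or with TMM factors (edgeR adjusted p = 0.0709).

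In insulin and growth signalling, 3 of 18 genes rose and 4 fell. TSC2, a brake on mTORC1, was at 20.9, 66.4 and 27.5 CPM in mice 64, 65 and 66 and at 57.3 to 181 CPM (median 144) in Control-78, with mouse 65 above the lowest control, mouse 86, and its call held with any 1 library left out (log2 fold change -1.83 ± 0.40 (SE), edgeR adjusted p = 0.00130). TRIB1, a pseudokinase that marks C/EBP alpha for degradation, was at 927, 1013 and 632 CPM against 409 to 18051 CPM (median 1115). The Direct-78 values lay within the controls and the fall (log2 fold change -2.16 ± 0.63 (SE), edgeR adjusted p = 0.0136) stands beside 1 control far above the others, mouse 90. The call was lost without mouse 64, 66 or 90 (edgeR adjusted p up to 0.724), and the log2 fold change was -0.21 without mouse 90. The same mouse had the highest value of EGR1, an immediate-early gene, which was at 29.5, 15.9 and 0 CPM in Direct-78 against 0 to 1844 CPM (median 88.3), with overlap (log2 fold change -4.78 ± 1.72 (SE), edgeR adjusted p = 0.0395), a call lost without mouse 64, 65, 66, 89 or 90 (edgeR adjusted p up to 0.140). Of 15 immediate-early genes 2 were called, both lower, where 11.6% of all genes tested were called lower. Of 20 genes of the respiratory chain 3 rose and 1 fell, among them CYCS, cytochrome c (log2 fold change 1.19 ± 0.40 (SE), edgeR adjusted p = 0.0279, lost without mouse 64, 66, 85, 89 or 90 (edgeR adjusted p up to 0.117) and with TMM factors, where the log2 fold change was 0.79 and the edgeR adjusted p 0.102), and NDUFV1 of complex I (log2 fold change -1.51 ± 0.53 (SE), edgeR adjusted p = 0.0362, in 3 of 5 draws at equal depth, lost without mouse 64, 66, 85, 87, 88 or 90 (edgeR adjusted p up to 0.127)). PFKL, the liver phosphofructokinase, was the 1 DEG of 16 genes of glucose metabolism (log2 fold change 1.76 ± 0.49 (SE), edgeR adjusted p = 0.00937, lost without mouse 64 (edgeR adjusted p up to 0.0958)). ALAS2, the erythroid enzyme of heme synthesis and the 1 DEG of 5 genes of that pathway, was at 81, 17.3 and 95.2 CPM against 290.3 to 841 CPM (median 367) and fell (log2 fold change -2.92 ± 0.68 (SE), edgeR adjusted p = 0.00223), also with any 1 library left out. None of 6 clock genes, and 3 of 26 collagens and matrix enzymes (1 higher, 2 lower), were called.

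Some genes had no count in any Direct-78 library. There were 121 of them among the 2205 tested, and 57 were lower DEGs. No tested gene was without counts in all Control-78 libraries, but these were more numerous and deeper, so the 2 numbers are not comparable. Of the 121 genes, 111 were in the lowest of the 5 abundance groups, with mean expression of 9.04 CPM or less. For genes without a count in Direct-78 the bound of 3 counts over its libraries, 1.46 CPM, is used, which covers counting error only. Folds set the Control-78 mean against this bound. LAMA3, a laminin chain, was at 23 to 94.7 CPM (median 61.2) in Control-78 and at least 39.5-fold lower in the Direct-78 libraries used. SMAD3, which carries TGF-beta signals, was at 13.7 to 40 CPM (median 17), at least 14.1-fold lower. BLOC1S2, a subunit of a complex of lysosome biogenesis, was at 7.37 to 29.1 CPM (median 20.8), at least 14.3-fold lower, and PARP1, a sensor of DNA breaks, was at 3.28 to 24.3 CPM (median 14.2), at least 9.55-fold lower. Every control held counts of these 4 genes, with edgeR adjusted p of 0.000189, 0.000105, 5.7e-05 and 0.000379, and the calls held with any 1 library left out. With all 78 libraries fitted, which adds the 3 Direct-78 libraries that the authors left out, the log2 fold change of BLOC1S2 had the opposite sign, and BLOC1S2, SMAD3 and PARP1 were not called, while LAMA3 was still lower. With the log2 total count as a covariate LAMA3 and BLOC1S2 were not called. In the libraries left out by the authors BLOC1S2 was at 65.4, 48.3 and 32.2 CPM, against 5.01 to 33 CPM in Control-78 at the scaling of all 78. Of the 57 DEGs, 5 had at least 3 counts in every Control-78 library after thinning to equal depth. In the 3 Direct-78 libraries that the authors left out, 56 of the 57 had a count in at least 1 library and 20 in all 3.

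Markers of other cells and tissues differed between the libraries. The summed CPM of 20 pancreas markers were 903, 131 and 582 in mice 64, 65 and 66 and 12.1 to 85.2 in Control-78. Most of this in mice 64 and 66 was ZG16, a protein of secretory granules that rose (502, 0 and 364 CPM against 0.540 to 5.86 CPM (median 0.908), log2 fold change 7.25 ± 2.16 (SE), edgeR adjusted p = 0.0154), while CELA2A was at 0 in all 3 libraries, against 0.270 to 5.03 CPM in Control-78. TRY4 (72.4, 52 and 73.2 CPM), TRY5 (17.2, 17.3 and 20.1 CPM) and AMY2A5 (7.37, 13 and 11 CPM), picked after their values were seen, lay above every control (highest 40.1, 8.19 and 4.10 CPM) but were not called. Cholangiocyte markers summed to 620.1, 33.2 and 364 CPM against 51.6 to 499. Of these, KRT19, a keratin of bile ducts, was at 287, 8.66 and 108 CPM against 2.79 to 44 CPM (median 6.86), and CLDN7, a tight junction protein, at 161, 10.1 and 76.9 CPM against 0.559 to 5.73 CPM (median 1.17). Both were high in mice 64 and 66 and low in mouse 65, which lay within the controls for KRT19 and above them for CLDN7. In contrast SPP1, osteopontin, was at 0, 14.4 and 12.8 CPM against 5.73 to 334 CPM (median 43), with overlap, and fell (log2 fold change -3.26 ± 1.18 (SE), edgeR adjusted p = 0.0399), a call lost without mouse 64, 66 or 90 (edgeR adjusted p up to 0.178), with a log2 fold change of -2.01 without mouse 90. CDH1, E-cadherin, the most abundant of the list in the controls, was at 134, 0 and 126 CPM against 21.3 to 138 CPM (median 95.7) and was not called (edgeR adjusted p = 0.957). KRT19 and CLDN7 rose (log2 fold change 3.38 ± 1.07 (SE), edgeR adjusted p = 0.0217 for KRT19, and log2 fold change 5.18 ± 1.39 (SE), edgeR adjusted p = 0.00780 for CLDN7) and lost the call without mouse 64 (edgeR adjusted p 0.206 and 0.0526), where the log2 fold change of KRT19 was 2.18. Lymphocyte markers summed to 369.6, 264 and 363 CPM, above the 97.8 to 199 CPM of all Control-78 libraries. Of 9 tested 3 rose, among them CD79A of the B cell receptor (47.9, 20.2 and 25.6 CPM against 0.819 to 9.45 CPM (median 3.56), log2 fold change 2.87 ± 1.08 (SE), edgeR adjusted p = 0.0483, in 4 of 5 draws at equal depth) and the light chain IGLC2 (70, 27.4 and 14.6 CPM against 0 to 12.3 CPM (median 2.48), log2 fold change 3.32 ± 0.94 (SE), edgeR adjusted p = 0.0111), while CD4 was at 0 in all 3 Direct-78 libraries, against 1.68 to 8.36 CPM. The call of CD79A was lost without mouse 64, 66, 85, 86, 87, 88 or 90 (edgeR adjusted p up to 0.168) and with TMM factors (edgeR adjusted p = 0.0768), and that of IGLC2 without mouse 64 (edgeR adjusted p up to 0.102). The zeros of CELA2A and CD4 rest on few expected counts, since 10 CPM corresponded to 5.46 to 8.14 counts in Direct-78.

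The remaining marker lists had few calls. Stellate cell and fibroblast markers summed to 325, 206 and 245 CPM in mice 64, 65 and 66 against 115 to 267 in Control-78, with VIM the most abundant in the controls, and 0 of 9 called. Macrophage markers summed to 2791, 1586 and 3188 CPM against 1209 to 5179.9, with TYROBP the most abundant, 1 of 10 lower and CCR2 at 0 in Direct-78, against 1.40 to 12.7 CPM. Endothelial markers summed to 247, 102 and 247 CPM against 152 to 215, with 1 of 7 higher, 1 lower and PECAM1 at 0 in Direct-78, against 0 to 6.55 CPM. Erythroid markers summed to 997, 1162 and 919 CPM against 901 to 1975, mostly HBA-A2, with 1 of 5 lower, and HBA-A1 and HBB-BS at 0 in Direct-78, against 0 to 4.10 and 1.63 to 8.19 CPM. Zeros at such control levels rest on few expected counts, since 10 CPM corresponded to 5.46 to 8.14 counts in Direct-78. Skeletal muscle markers summed to 131, 23.1 and 209 CPM against 26.3 to 113 and adipocyte markers to 239, 124 and 108 CPM against 45 to 124, with 0 of 6 and 0 of 4 called. The part of other cells and tissues in the changes described above was not tested.

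The change after 78 weeks of DCA was set against that after 57 weeks (S3-57 against Control-57), a comparison that shares no library with it. S3-57 had 158 DEGs (7.17%), 91 higher and 67 lower. Of these, 49 were also DEGs in the same direction in Direct-78, which is 31% of the DEGs of S3-57 and 10.3% of those of Direct-78, and 3 were DEGs in the opposite direction. The change itself differed for 120 genes (5.44%), with 97 lower and 23 higher in Direct-78 than in S3-57, and 28 of these had no count in Direct-78. CYP4A14 had a log2 fold change of -3.58 in S3-57 (edgeR adjusted p = 0.317) and 7.30 in Direct-78, a difference of 10.88 ± 2.86 (SE, edgeR adjusted p = 0.0162). ELOVL3 was at 0.62 in S3-57, a difference of -9.54 ± 2.25 (edgeR adjusted p = 0.00699). SULT3A1, CANX, C9 and C8B, on the other hand, were also DEGs in S3-57, with log2 fold changes of 6.57, -1.04, -2.67 and -2.30, and their differences were not called (edgeR adjusted p of 0.827, 0.778, 0.962 and 0.849).

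Several of the groups described above held genes whose change differed from that at 57 weeks. Of 3 complement genes with such a difference, 2 were C8A (difference -3.16 ± 0.62, edgeR adjusted p = 0.00253) and HC (-3.56 ± 0.72, edgeR adjusted p = 0.00270), and among ER genes CRELD2 (-3.60 ± 0.91, edgeR adjusted p = 0.0120), HERPUD1 (-2.13 ± 0.65, edgeR adjusted p = 0.0389) and SEL1L (-2.28 ± 0.71, edgeR adjusted p = 0.0419). All 5 changes were lower in Direct-78 than in S3-57. ACADM (1.93 ± 0.47, edgeR adjusted p = 0.00950), CYCS (2.25 ± 0.54, edgeR adjusted p = 0.00764) and CCNA2 (2.77 ± 0.88, edgeR adjusted p = 0.0470) were higher in Direct-78 than in S3-57. IRF7 differed by -4.02 ± 0.89 (edgeR adjusted p = 0.00455). None of the 7 female-biased genes but CYP4A14, none of the 6 MUPs and none of the 17 acute phase proteins was called for a difference, although their medians relative to all genes were 0.93, -1.36 and -0.13 in S3-57 against 1.92, -3.92 and -1.53 in Direct-78. The count of 120 moved with single libraries, from 60 without mouse 90 to 236 without mouse 86, and it was 107 at equal depth, 58 with only the compared groups, 15 with the log2 total count as a covariate and 14 with all 78 libraries. Age differed by 21 weeks between the 2 comparisons. The gap in depth also differed: median totals were 671116 in Direct-78 against 3505219.5 in Control-78. They were 1584078 in S3-57 against 2875739.5 in Control-57. Exposure length, age and depth cannot be told apart here.

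**Figure D5:**
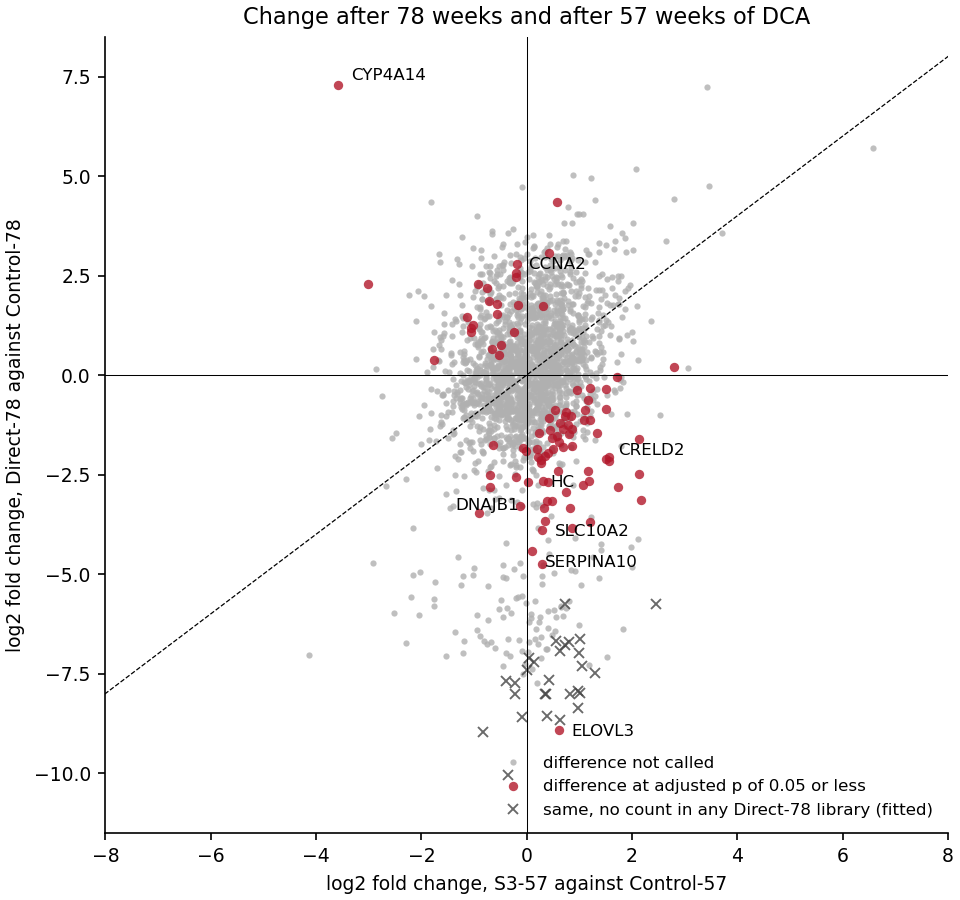
Log2 fold change of Direct-78 against Control-78 over that of S3-57 against Control-57, with 1 point per gene. Colored points and crosses mark the 120 genes whose change differed at an adjusted p of 0.05 or less, crosses those without a count in Direct-78, and the dashed line marks equal change. CYP4A14 lay far above the line, and ELOVL3, SERPINA10, SLC10A2 and HC far below it.

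Against the 10-week exposure (S1-10 against Control-10) the change differed for 748 genes (33.9%), 420 higher and 328 lower in Direct-78. S1-10 had 141 DEGs (6.39%), 28 higher and 113 lower. Of these, 58 were also DEGs in Direct-78, all in the opposite direction. These counts rest in part on 1 library of Control-10, mouse 68, whose squared Spearman correlation was 0.747 against 0.910 to 0.912 in the others. Without it the change differed for 453 genes, and S1-10 had 2 DEGs, neither of them a DEG in Direct-78 (206 genes had an unadjusted p under 0.05 in edgeR). With all kept libraries and the log2 total count as a covariate, the change differed for 9 genes instead of 748. S1-10 and Control-10 were of similar depth (median totals 1965692 and 1930473.5), whereas Direct-78 was shallower than Control-78. Age also differed, with week 10 against week 78. Exposure length, age and depth cannot be told apart here.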

How the data were processed

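TempO-Seq libraries of mouse liver sections were analyzed from the deposited raw counts per gene, which the authors produced with Bowtie and Partek 10.0.22.0524 (mm10) per the submitters' processing notes. The normalized signal that the authors deposited, made with DESeq2, served only to choose libraries (68 of 78) and genes (2205 of 2755). A quasi-likelihood model of the 13 groups was fitted in edgeR 4.0.16 (R 4.3.3) with median-ratio factors, and differences between exposures were tested as contrasts. p values were adjusted by Benjamini-Hochberg. Each SE is the absolute log2 fold change divided by the square root of the F statistic of its test. It is thus back-calculated and not an output of the fit itself. Thresholds for DEGs were 0.05 for the adjusted p and 1.5 for the fold change. Thinning to 541245 counts used 5 draws. DESeq2 1.42.0 was an alternative. The fit was tested on simulated data, with no result reported here. The rule for named genes took the 12 largest rises and falls among DEGs without overlap and with a group mean of 10 CPM or more, up to 4 DEGs and the most abundant member of each of 43 gene lists, genes that the study text names, and the target of DCA. It gave 163 genes, of which a part is described, and exceptions are stated. The result of 1 marker list is not reported here. Members and lists were chosen with earlier results of these data known. Bounds for genes without counts cover counting error only. The assay attenuated abundant transcripts equally in all samples per the labels, so sums over lists and orders by abundance are of attenuated counts.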

Additional observations from a re-analysis of the deposited data

Results flagged for a closer look

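In 23 of 110 sets of Control-78 values tested, 1 library lay far from the other 5, where chance flags about 1 in 20 groups of independent values. The sets were not independent, since most were CPM of called genes in the same 6 mice, so this share is no reference for 23 of 110. Mouse 86 stood apart for genes at 0 after thinning (83), Spearman R2 (0.849), CYP4A14 (53.2 CPM), SLC27A1 (138), HSPD1 (102), C9 (61782), CYP2C38 (92.6), NEIL3 (12.3), TSC2 (57.3) and CYCS (492). Mouse 90 did so for SLC10A2 (506 CPM), DNAJB1 (481), SRXN1 (2725), EGR1 (1844), TRIB1 (18051), KRT19 (44) and SPP1 (334), mouse 85 for CANX (2711), PDIA6 (72.7) and CYP2E1 (19499), mouse 89 for SAA2 (47751), mouse 88 for ZG16 (5.86) and mouse 87 for SMAD3 (40). All were the highest of their group but R2, CANX and TSC2, which were the lowest.

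The log2 change in Direct-78 minus that in S3-57 differed by edgeR's test for CYP4A14 (10.88), ACADM (1.93), CCNA2 (2.77) and CYCS (2.25), which were higher in Direct-78, and for ELOVL3 (-9.54), GHR (-2.35), SLC10A2 (-4.17), CRELD2 (-3.60), HERPUD1 (-2.13), SEL1L (-2.28), DNAJB1 (-3.55), C8A (-3.16), HC (-3.56), SERPINA10 (-4.52), IRF7 (-4.02), TSC2 (-1.76) and CASP2 (-5.04). LAMA3 (-9.70), BLOC1S2 (-8.50), SMAD3 (-8.94), PARP1 (-8.36), CCL27B (-7.49) and MLLT11 (-8.38) also differed, but had no count in Direct-78, so these fitted values depend on the prior count. CASP2, CCL27B and MLLT11 were chosen after their values were seen. Against S1-10 the change differed for 748 genes.

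In the 3 Direct-78 libraries that the authors left out (mice 61, 62 and 63), 130 of the 220 higher DEGs were above all Control-78 libraries in all 3, as were 496 of all 2205 genes. Of the 255 lower DEGs, 109 were below all of them, as were 357 of all genes, while 5 were above all of them. No higher DEG was below all of them.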

How the results depend on the processing

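Every Direct-78 library was shallower than every Control-78 library, and depth and DCA cannot be told apart. With every library thinned to equal depth, 5 draws gave 420 to 477 DEGs, against 475 at full depth, with 326 of the 475 called in all draws and none of the opposite sign in any draw. With the log2 total count as a covariate there were 6 DEGs: 5 of the 255 lower ones (CASP2, CCL27B, MLLT11, PARP1 and SMAD3) and 1 higher that was not a DEG before (PARP2, 4.57). Among the lower ones CCL27B, MLLT11, PARP1 and SMAD3 had no count in any Direct-78 library used. CASP2 was at 1.23, 0 and 0 CPM in mice 64, 65 and 66. No higher DEG was kept, 15 genes differed from S3-57 and 9 from S1-10. CASP2, CCL27B, MLLT11 and PARP2 were chosen after their values were seen. DEGs numbered 820 (457 higher) with all 78 libraries and 301 (141 higher, 160 lower) with only the compared groups. Higher DEGs were 126 and lower ones 413 with TMM, and higher ones 447 with detected genes as a covariate. Genes that differed from S3-57 were 14 with all 78 libraries, 58 with only the compared groups and 194 with detected genes. With single libraries left out, DEGs ranged from 203 to 652, higher ones from 85 to 318, lower ones from 109 to 357, genes that differed from S3-57 from 60 to 236 and from S1-10 from 453 to 839.

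The sign of the log2 fold change turned with the log2 total count for MUP15 (0.16), CES2A (0.20), STAT5B (1.59), FABP1 (-0.38), PPARA (-0.13), ABCB11 (0.89), CYP8B1 (0.06), PDHA1 (2.10), HSP90B1 (-0.97), CALR (-1.48), EDEM1 (0.04), HSPD1 (-0.78), HC (0.20), SERPINA10 (2.50), F11 (0.09), SQSTM1 (0.03), UGDH (-2.41), CYP2E1 (0.20), MYB (-0.83), AEN (-0.01), IFITM3 (1.92), CYCS (-0.38) and PSMB4 (-0.07). It also turned with all 78 libraries for FABP1 (-0.45), PPARA (-0.23), HSP90B1 (-0.23), BLOC1S2 (0.17), CCL27B (0.59) and MLLT11 (1.11), with detected genes for STAT5B (0.08), FABP1 (-0.01), HSP90B1 (-0.24) and CDH1 (0.24), with upper-quartile factors (0.03) and thinning (0.11) for CDH1, and with TMM (-0.31) and only the compared groups (-0.01) for HSP90B1. With single libraries left out it ranged from -0.10 to 0.42 for HSP90B1, from -0.62 to 0.12 for CYP8B1 and from -0.51 to 0.52 for CDH1. The cause was not tested. Of the 90 called genes followed, 85 lost the call with the log2 total count, 45 without mouse 64 and 42 without mouse 66. The call was lost for 18 with only the compared groups, 13 with detected genes and 13 with all 78 libraries. It was lost for 4 with TMM and for none with DESeq2. Which genes these were is given above only in part. No paired analysis was possible because no mouse number occurs in both groups.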
